A study of Mus musculus with 7 samples.

Results

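Described here are 9 genes whose products are used to stain or sort mouse cells on their way to pluripotency: Cd24a, Pecam1, Cd9, Fut4, Alpl, Kit, Prom1, Thy1 and Cd44. They were chosen by gene symbol, with earlier results of these data known, and each symbol matched 1 of the 54838 gene rows of the deposited count table. RNA-seq covered 7 libraries. The reference was 1 library of V6.5, an established line of mouse embryonic stem cells (ESC). The other 6 were induced pluripotent stem cell (iPSC) colonies, each a single picked clone, reprogrammed from splenic germinal center (GC) B cells of male mice given SRBC 9 days earlier and sorted as B220+ CD38- Fas+. Bulk cells gave 3 of them (GC colonies), and the 3 titled M (M colonies) are read as coming from cells positive for the Myc-GFP reporter of T follicular helper activation, the only other source named in the design. All 6 colonies shared 6 days with cytokines on mouse embryonic fibroblast (MEF) feeders, 10 days of reprogramming with doxycycline (Dox), 4 days free of Dox, a passage on gelatin and a 45 min pre-plating against feeders. All 7 cultures were kept with FBS and LIF. The labels give neither the donor mouse or its age nor the strain of the mice or of V6.5, so source cell, donor, strain and culture history cannot be told apart, and each p-value measures only the spread among these colonies.

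Reprogramming is usually followed at the cell surface. Somatic proteins such as Thy1 (on fibroblasts and T cells) and CD44 (the hyaluronan receptor of activated lymphocytes and mesenchymal cells) are lost early, alkaline phosphatase and the SSEA-1 sugar appear in between, and PECAM1 marks cells close to the ground state. Fut4 codes for a fucosyltransferase that can build SSEA-1, Alpl for tissue-nonspecific alkaline phosphatase, Kit for the stem cell factor receptor, Cd9 for a tetraspanin, and Prom1 for CD133, a membrane protein of protrusions. CD24, encoded by Cd24a, is a small GPI-anchored sialoglycoprotein found both on B cells and on pluripotent cells, in which it has been tied more to the primed than to the naive state. RNA does not show how much protein or sugar reaches the surface.

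Libraries held from 31139508 (V6.5) to 35728921 (GC colony 1) counts. Pou5f1, the gene of the central pluripotency factor Oct4, was at 660.4 CPM (counts scaled by library size, with TMM factors) in V6.5, between 372 and 378 CPM in GC colonies and between 478 and 502 CPM in M colonies. M colonies 2 and 3 stood apart in holding 50 and 39 counts over all Y chromosome genes, against 7860 in M colony 1, 9620 to 13237 in GC colonies and 5714 in V6.5, so each comparison was repeated without both. That repeat leaves M colony 1 as the only M library, which is then assumed to vary like the others. Every member was detected in all 7 libraries. The scarcest, Fut4, had 28 counts in V6.5 and from 46 to 78 counts in colonies.

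The colonies of the 2 sources were set against each other, which asks whether the sorted state of the B cell was followed by different surface marker levels in the iPSCs. Two-sided edgeR quasi-likelihood tests of the 6 colonies called 2 of the 9 genes, Pecam1 and Alpl, both lower in M colonies, and called 0 higher at an adjusted p of 0.05 (Benjamini-Hochberg over 18166 genes). At an unadjusted p under 0.05, 0 members were higher and 3 lower, and DESeq2 and limma-voom also called 0 higher. Of all tested genes, 2.27% were called lower and 1.70% higher, 3.97% in all. The median log2 change of the 9 was -0.048, against 0.0027 over all tested genes. The 3 M values lay wholly on one side of the 3 GC values for 4 members, namely Pecam1, Alpl and Kit (M lower) and Fut4 (M higher), and for 22.1% of all tested genes (12.0% lower and 10.1% higher in M). In bulk RNA, fewer cells that express a gene and less RNA per cell cannot be told apart.

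Pecam1 (ENSMUSG00000020717, chromosome 11 from 106654217 to 106750628) codes for CD31, an adhesion molecule of the immunoglobulin family that in mouse pluripotent cultures marks the undifferentiated cells. Its level was 140.0 CPM in V6.5, 96.5, 99.8 and 103 CPM in GC colonies 1 to 3, and 69.5, 78.6 and 64.9 CPM in M colonies 1 to 3. The lowest GC colony thus stood above the highest M colony, and V6.5 stood above them all. Means were 99.7 ± 3.10 CPM among GC and 71.03 ± 6.97 CPM among M colonies (SD, n = 3 each), 1.41-fold lower in M, with a log2 change of -0.49 ± 0.08 (SE) and an edgeR adjusted p = 0.00328. This call was kept in all 6 fits that left out a colony (edgeR adjusted p from 0.0016 to 0.0299). Without M colonies 2 and 3, which leaves M colony 1 as the only M library, the log2 change was -0.52. PECAM1 is also an endothelial protein, so endothelial genes were measured beside it. The summed level of 10 such markers was 26.3 CPM in V6.5, 74.7 to 79.6 CPM in GC and 74.6 to 81.8 CPM in M colonies. Among 9 tested, 1 fell in M (Tie1, a receptor kinase, 21.3 ± 3.83 to 10.4 ± 3.97 CPM) and 1 rose (Flt1, a VEGF receptor, 36.3 ± 3.58 to 51.8 ± 5.81 CPM). DESeq2 did not call Tie1, and neither call held once GC colony 1, GC colony 2 or M colony 3 was left out (edgeR adjusted p from 0.0536 to 0.152). The median log2 change of the 9 tested endothelial genes was -0.19, against 0.0027 over all tested genes. Cdh5, the defining endothelial cadherin, was not chosen by the naming rule given below. It was 2.21 ± 0.106 CPM among GC and 2.01 ± 0.855 CPM among M colonies. The part of endothelial cells in the Pecam1 difference was not tested.

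Alpl (ENSMUSG00000028766, chromosome 4 from 137741733 to 137796384) codes for the enzyme behind the alkaline phosphatase stain of pluripotent colonies. It was 249 CPM in V6.5, 166, 179.8 and 164 CPM in GC colonies and 135, 152 and 126 CPM in M colonies. The groups did not overlap, though the highest M colony (colony 2) came within 12.6 CPM of the lowest GC colony. The M mean of 137 ± 12.9 CPM was 1.24-fold below the GC mean of 169.9 ± 8.63 CPM (SD, n = 3 each), a log2 change of -0.31 ± 0.07 (SE) with an edgeR adjusted p = 0.0384. That call rested on single colonies: it was lost without GC colony 1 (edgeR adjusted p = 0.079), GC colony 2 (0.252), M colony 1 (0.0996), M colony 3 (0.227) or M colonies 2 and 3 (0.156), while the log2 change stayed between -0.38 and -0.25.

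Kit (ENSMUSG00000005672, chromosome 5 from 75574916 to 75656722) was 176 CPM in V6.5, 128, 125 and 139 CPM in GC colonies and 106, 122 and 111 CPM in M colonies. All 3 M values again lay below the GC values, by 3.16 CPM at the nearest pair. The log2 change of -0.22 ± 0.07 (SE, 95% confidence interval -0.37 to -0.06, not adjusted for the number of genes) did not pass over all genes (edgeR adjusted p = 0.133). Fut4 (ENSMUSG00000049307, chromosome 9 from 14748320 to 14752393) was 0.938 CPM in V6.5, 1.66, 1.40 and 1.44 CPM in GC colonies and 1.77, 2.34 and 2.15 CPM in M colonies. It was the only member whose M values all lay above the GC values. At so few counts its log2 change of 0.47 ± 0.26 (SE) had an interval of -0.10 to 1.04 and did not pass (edgeR adjusted p = 0.416).

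The other 5 members overlapped between the sources. Cd9 (ENSMUSG00000030342, chromosome 6 from 125460266 to 125494791) was 185, 179 and 163 CPM among GC and 187, 176 and 172 CPM among M colonies, and the interval of its log2 change, -0.13 to 0.16, was the narrowest of the 9. Cd24a (ENSMUSG00000047139, chromosome 10 from 43578284 to 43584265) was 133, 127 and 134 CPM among GC and 143, 114 and 124 CPM among M colonies, with an interval of -0.22 to 0.13. Neither interval reaches the change of Pecam1. Prom1 (ENSMUSG00000029086, chromosome 5 from 43993620 to 44102032) was 10.3, 10.2 and 10.5 CPM among GC and 10.4, 9.61 and 11.6 CPM among M colonies, with an interval of -0.25 to 0.30. The edgeR adjusted p of these 3 ran from 0.835 to 0.954.

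**Figure D1:**
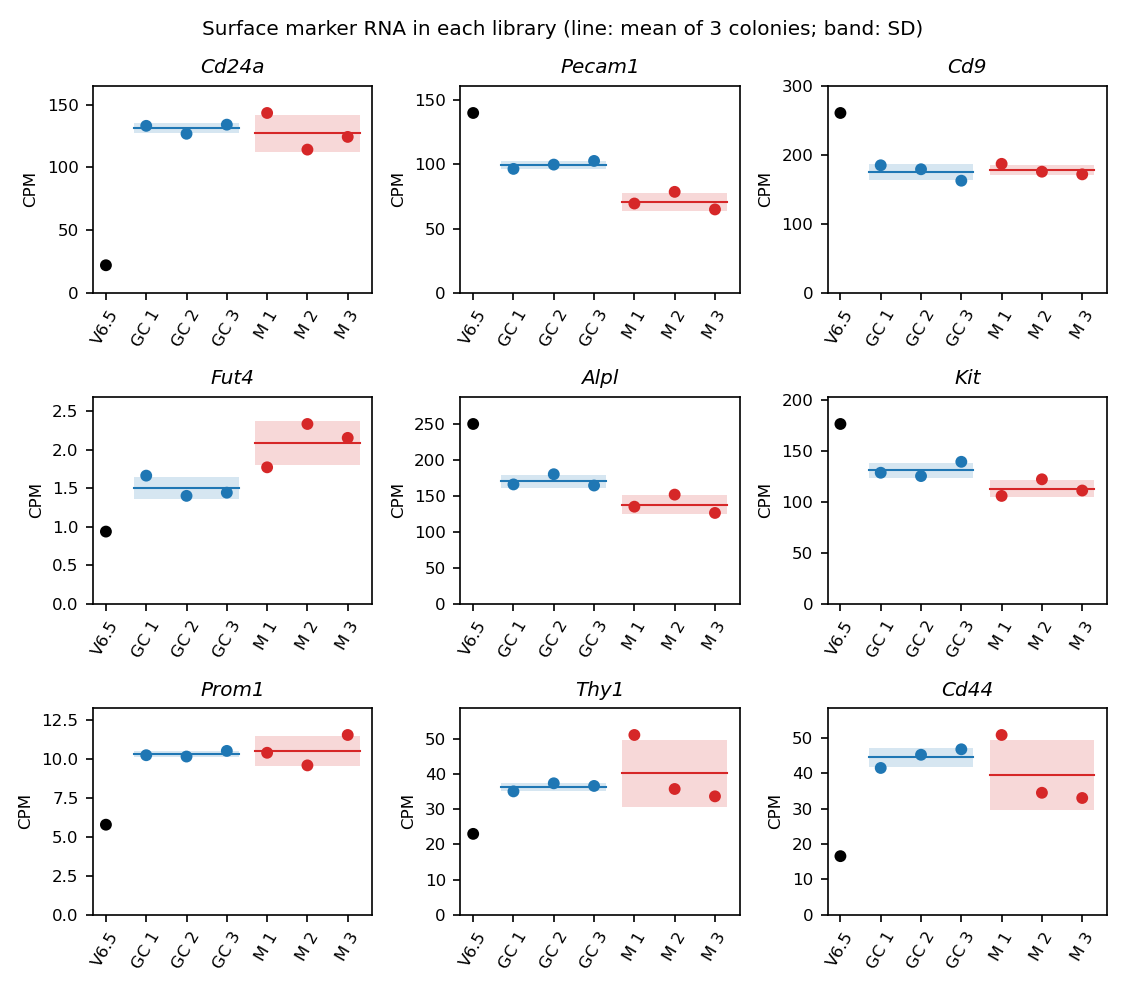
Level of each of the 9 surface marker genes (vertical axis, TMM-scaled CPM from 0) in the V6.5 ESC library (black), 3 GC colonies (blue) and 3 M colonies (red); lines are means of 3 colonies and bands their SD. Pecam1, Alpl and Kit are lower in all 3 M colonies than in any GC colony, and V6.5 lies outside the colonies for all 9 genes, furthest for Cd24a (21.98 CPM against 114 to 143 CPM).

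Thy1 and Cd44, the pair of somatic markers, differed more among M colonies than between sources. Thy1 (ENSMUSG00000032011, chromosome 9 from 44043384 to 44048579) was 35.1, 37.4 and 36.6 CPM in GC colonies and 51.1, 35.8 and 33.7 CPM in M colonies. Cd44 (ENSMUSG00000005087, chromosome 2 from 102811141 to 102901665) was 41.5, 45.2 and 46.8 CPM in GC colonies and 50.8, 34.5 and 33.02 CPM in M colonies. M colony 1 was thus the highest of the 6 for both genes and M colony 3 the lowest for both. From the lowest to the highest colony the ratio was 1.52 for Thy1 and 1.54 for Cd44 among M colonies, against 1.07 and 1.13 among GC colonies. For the other 7 members these ratios ran from 1.09 (Cd9) to 1.32 (Fut4) among M and from 1.04 (Prom1) to 1.19 (Fut4) among GC colonies. Neither gene passed between sources (edgeR adjusted p = 0.672 for Thy1 and 0.589 for Cd44), with intervals of the log2 change of -0.14 to 0.43 and -0.47 to 0.12. Without M colony 1, Cd44 was called lower in M colonies (log2 change -0.40, edgeR adjusted p = 0.0309) and the sign of Thy1 turned to -0.07. With M colony 1 as the only M library, Thy1 was 0.49 above GC colonies on the log2 scale (edgeR adjusted p = 0.0518), a fit in which that lone library is assumed to vary like the others.

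Both proteins sit on fibroblasts, the cells of the feeder layer, so feeder markers were read in the same libraries. The summed level of 25 fibroblast markers was 1218 CPM in V6.5 and 1913 to 2040.3 CPM in GC colonies. It was 2273, 2016 and 1825 CPM in M colonies 1 to 3, highest in colony 1 and lowest in colony 3, as for Thy1 and Cd44. Between sources the median log2 change of 23 tested was 0.17, 0 fell and 1 rose, Nt5e, which codes for the ectoenzyme CD73 (3.55 ± 0.473 to 6.44 ± 0.599 CPM). This call did not hold once GC colony 1, GC colony 2, M colony 3 or both M colonies 2 and 3 were left out (edgeR adjusted p up to 0.253). Vim (vimentin; 539 ± 21.3 and 501 ± 44.3 CPM) and Col1a1 (collagen I; 311 ± 16.9 and 354 ± 49.7 CPM) did not pass, and the part of feeder cells in the Thy1 and Cd44 levels was not tested. Lum and S100a4 were under 1 CPM in all 7 libraries. B cells, the donor cells, also carry CD44 and CD24. Of 14 B cell markers 9 were under 1 CPM in all 7 libraries, among them Ms4a1, Pax5 and Ptprc, and Blk was at 0 counts in each. Between sources edgeR, DESeq2 and limma-voom called 0 of 7 tested B cell genes, with 1 higher at an unadjusted p under 0.05 and a median log2 change of -0.35. The most abundant were Cd38 (8.68 ± 0.685 CPM among GC and 10.9 ± 0.422 CPM among M colonies) and Ebf1 (3.65 ± 0.532 and 4.31 ± 0.771 CPM). The donor cells had been sorted as CD38-, and Cd38 did not pass against V6.5 (log2 change 0.04, edgeR adjusted p = 0.917). Against V6.5 edgeR, DESeq2 and limma-voom called 0 of 9, with 1 lower at an unadjusted p under 0.05 and a median of -0.057.

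Colonies were then set against V6.5, in a fit of all 7 libraries, to place the reprogrammed cells beside an established line. Of the 9 genes, 4 were lower in the 6 colonies than in V6.5 (Pecam1, Alpl, Cd9 and Kit), 4 were higher (Cd24a, Cd44, Prom1 and Thy1), and Fut4 did not pass. Of 20502 tested genes, 7.56% were called lower and 8.76% higher, 16.3% in all. The 8 calls held in each alternative fit, namely DESeq2, limma-voom, RLE or upper quartile scaling, no low-count filter, each colony left out in turn, and M colonies 2 and 3 left out. For all 9 members V6.5 lay outside the range of the 6 colonies, as it did for 51.4% of tested genes. V6.5 is 1 library, so the error of each difference rests on how colonies varied, and the line was assumed to vary as much. Of the GC colonies alone, 4 members were higher than V6.5 and 4 lower, where 7.53% and 5.51% of tested genes (13.0% in all) were called. Of the M colonies alone, 4 were also higher and 4 lower, where 8.84% and 7.37% (16.2% in all) were called; both of these comparisons share the V6.5 library.

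The largest of these differences was that of Cd24a. V6.5 held 21.98 CPM and the colonies 114 to 143 CPM, a rise of 2.56 ± 0.14 (SE) on the log2 scale, 5.88-fold, with an edgeR adjusted p = 1.74e-07. Each colony held more than 5 times the ESC level, and the log2 change was 2.58 ± 0.14 in GC and 2.53 ± 0.14 in M colonies. Cd44 rose from 16.6 CPM to between 33.02 and 50.8 CPM, 2.53-fold, with an edgeR adjusted p = 0.000629. Prom1 rose from 5.80 CPM to between 9.61 and 11.6 CPM (1.80-fold, edgeR adjusted p = 0.00732). Thy1 rose from 23.02 CPM to between 33.7 and 51.1 CPM (1.66-fold, edgeR adjusted p = 0.0168). The Thy1 rise in GC colonies taken alone (edgeR adjusted p = 0.0415) was not called by limma-voom (0.0656) or without GC colony 1 (0.0529), GC colony 2 (0.0931) or GC colony 3 (0.0539). Fibroblast markers moved in the same direction, with 13 of 23 higher in colonies and 0 lower by edgeR (11 higher and 1 lower with M colonies 2 and 3 out) and a median log2 change of 0.65, and the part of feeders in the Cd44 and Thy1 rises was not tested.

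The falls ran from 1.45-fold (Kit) to 1.66-fold (Pecam1). Pecam1 fell from 140.0 CPM in V6.5 by 1.66-fold over the colonies (edgeR adjusted p = 0.000177), with a log2 change of -0.49 ± 0.11 (SE) in GC and -0.98 ± 0.10 in M colonies. Alpl fell 1.63-fold (edgeR adjusted p = 0.000186), with a log2 change of -0.55 ± 0.10 in GC and -0.86 ± 0.10 in M colonies. Kit fell 1.45-fold (edgeR adjusted p = 0.00126), with log2 changes of -0.43 ± 0.10 and -0.64 ± 0.10, and its GC value was not called without GC colony 2 (edgeR adjusted p = 0.052). For these 3 genes the M mean lay further from V6.5 than the GC mean, and the difference between the sources themselves passed for Pecam1 and Alpl. Of 10 endothelial markers, 5 were higher in colonies than in V6.5 (Cdh5, Kdr, Tek, Tie1 and Flt1) and 0 were lower. Their median log2 change was 1.71, and limma-voom called 3 higher. The part of endothelial cells in the Pecam1 difference from V6.5 was not tested. Cd9 was 261 CPM in V6.5 and 163 to 187 CPM in colonies, 1.47-fold lower (edgeR adjusted p = 0.000514), with log2 changes of -0.57 ± 0.09 in GC and -0.55 ± 0.09 in M colonies. Fut4 was 1.89-fold above V6.5 without passing (edgeR adjusted p = 0.133, unadjusted interval of the log2 change 0.08 to 1.75).

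**Figure D2:**
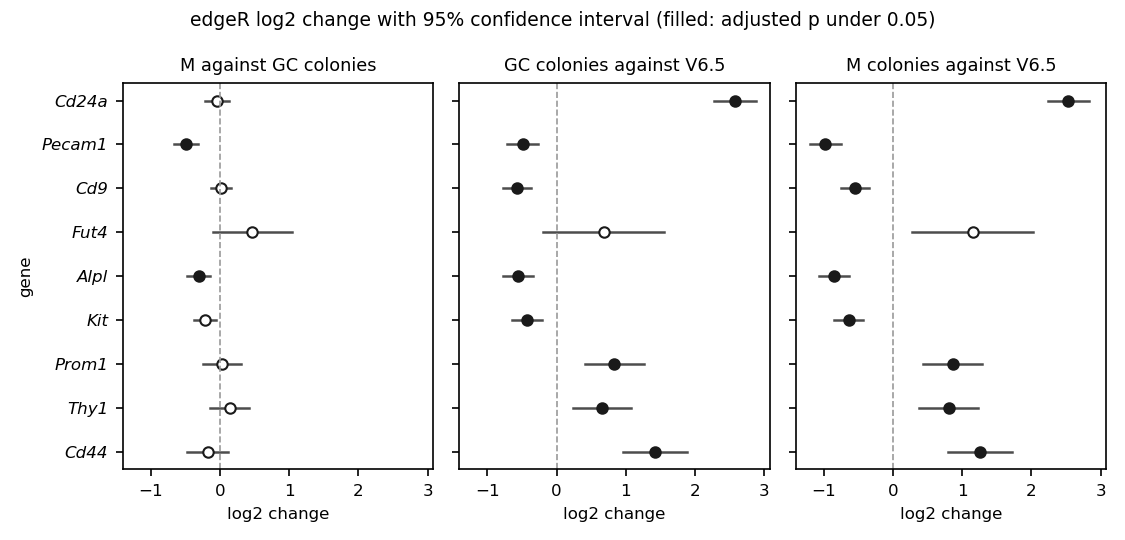
edgeR log2 change (horizontal axis) of each surface marker gene with its 95% confidence interval in 3 comparisons; filled points have an adjusted p under 0.05, and the comparisons with V6.5 share its 1 library. Between sources only Pecam1 and Alpl are filled, whereas against V6.5 every gene but Fut4 is filled for both sources, with Cd24a at 2.58 and 2.53.

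To compare genes with each other, CPM were divided by the kilobases of annotated exon of each gene. In GC colonies the order was Cd9 (86.03 ± 5.69 CPM per kb, SD, n = 3), Cd24a (50.9 ± 1.53), Alpl (42.1 ± 2.14), Pecam1 (16.005 ± 0.498), Kit (14.7 ± 0.821), Thy1 (12.1 ± 0.392), Cd44 (6.57 ± 0.4), Prom1 (1.44 ± 0.0264) and Fut4 (0.369 ± 0.0347). Of these neighbours, those whose colonies overlapped were Pecam1 and Kit. In M colonies Thy1 (13.4 ± 3.18 CPM per kb), Kit (12.7 ± 0.933) and Pecam1 (11.4 ± 1.12) overlapped as neighbours, and the genes above and below them kept the GC order. In V6.5 the order was Cd9 (128 CPM per kb), Alpl (61.9), Pecam1 (22.5), Kit (19.8), Cd24a (8.52), Thy1 (7.69), Cd44 (2.45), Prom1 (0.808) and Fut4 (0.23). Cd24a therefore ranked below Alpl, Pecam1 and Kit in the ESC line and above all 3 in every colony. This order rests on the length used. With the longest annotated transcript as the length, Alpl (71.3 CPM per kb) stood above Cd24a (69.8) in GC colony 2, while Cd24a stood above Alpl in the other 5 colonies, and Thy1 (13.3 CPM per kb) stood above Cd24a (12.1) in V6.5.

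**Figure D3:**
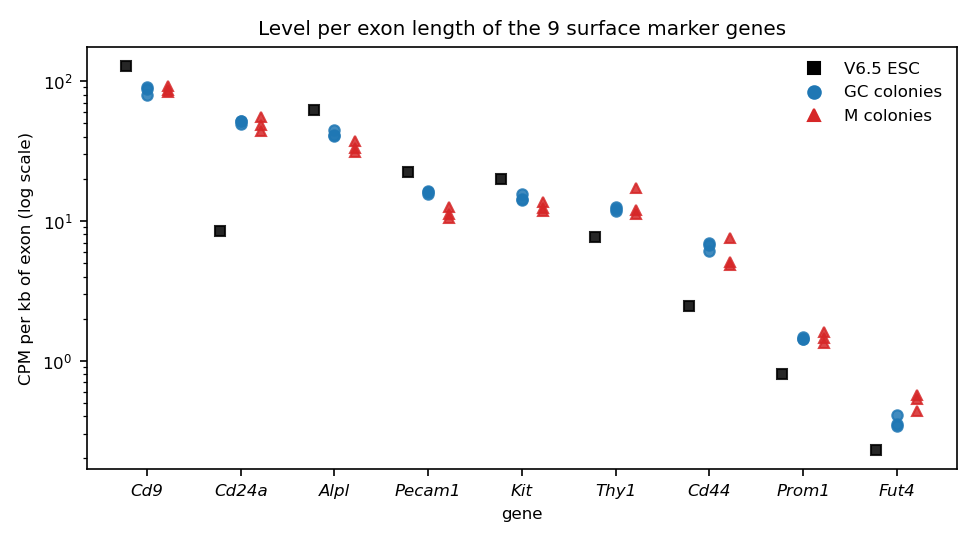
Level per exon length (vertical axis, CPM per kb, log scale) of the 9 genes in V6.5 (squares), GC colonies (circles) and M colonies (triangles), 1 point per library, genes ordered by their GC mean. Levels span from 0.23 (Fut4 in V6.5) to 128 CPM per kb (Cd9 in V6.5), and Cd24a in V6.5 sits far under its colonies.

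The start regions of 5 members that moved are shown because they belong to genes that changed in opposite directions against V6.5: Alpl, Kit and Cd9, which fell, and Cd44 and Prom1, which rose. They were copied from RefSeq (GRCm38.p6), whose promoter table held 6 of the 9 genes; Cd24a, Pecam1 and Thy1 had no entry. Each is the 250 bases before an annotated start on the gene's own strand, less any base inside an annotated exon. Capitals mark the GC box, GGGCGG on either strand, a site of Sp and Klf type factors; overlapping matches are counted separately.

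Alpl, start 1, chr4:137796385-137796634, minus strand: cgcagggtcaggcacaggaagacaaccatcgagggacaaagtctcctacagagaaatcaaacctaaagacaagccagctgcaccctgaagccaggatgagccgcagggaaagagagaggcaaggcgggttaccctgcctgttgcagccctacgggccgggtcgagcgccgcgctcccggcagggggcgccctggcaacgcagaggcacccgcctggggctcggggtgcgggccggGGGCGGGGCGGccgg
Alpl, start 2, chr4:137766476-137766725, minus strand: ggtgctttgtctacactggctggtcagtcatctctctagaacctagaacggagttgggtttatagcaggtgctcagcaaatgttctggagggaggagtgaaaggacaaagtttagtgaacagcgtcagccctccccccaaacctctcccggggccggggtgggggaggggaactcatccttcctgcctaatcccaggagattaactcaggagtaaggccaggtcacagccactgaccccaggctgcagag
Kit, chr5:75574737-75574915, plus strand: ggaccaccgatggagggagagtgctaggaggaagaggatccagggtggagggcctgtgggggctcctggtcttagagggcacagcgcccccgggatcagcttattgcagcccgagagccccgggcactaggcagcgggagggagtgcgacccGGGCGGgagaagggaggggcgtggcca
Cd9, chr6:125494792-125495010, minus strand: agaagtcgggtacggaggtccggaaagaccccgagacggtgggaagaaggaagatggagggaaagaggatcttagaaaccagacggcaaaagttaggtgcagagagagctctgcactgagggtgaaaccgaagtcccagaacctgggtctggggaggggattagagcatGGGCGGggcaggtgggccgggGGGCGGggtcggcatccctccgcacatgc
Cd44, chr2:102901666-102901915, minus strand: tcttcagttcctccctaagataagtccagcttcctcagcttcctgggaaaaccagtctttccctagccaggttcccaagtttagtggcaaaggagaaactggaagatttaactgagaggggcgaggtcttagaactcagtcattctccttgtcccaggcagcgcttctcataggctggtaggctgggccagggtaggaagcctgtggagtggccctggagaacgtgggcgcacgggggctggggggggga
Prom1, chr5:44094769-44095018, minus strand: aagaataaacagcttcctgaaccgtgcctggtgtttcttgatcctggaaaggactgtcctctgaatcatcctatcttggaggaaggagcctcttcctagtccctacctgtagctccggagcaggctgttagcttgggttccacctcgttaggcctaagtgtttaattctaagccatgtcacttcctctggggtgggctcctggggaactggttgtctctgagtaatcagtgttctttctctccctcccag

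GC boxes were found 2 times at the first start of Alpl, 2 times at Cd9 and 1 time at Kit, and 0 times at the second start of Alpl, at Cd44 and at Prom1, whose window lies at a start within the gene; another Prom1 window and that of Fut4 fell within exons and are not shown. Of 32851 mouse promoter windows of 250 bases, 32.7% held at least 1; the Kit and Cd9 windows are shorter. Of the other motifs searched on both strands, TATAAA occurred at the second start of Alpl (12.4% of all windows), and ATGCAAAT (1.60%), CCAAT (33.8%) and CACGTG (6.02%) occurred in none of the 6 windows. The first Alpl start had 20 CG dinucleotides and 68.4% G+C, the second 4 and 56%, Kit 10 in 179 bases and 69.3%, Cd9 12 in 219 bases and 61.2%, Cd44 5 and 56.4%, and Prom1 3 and 50.8%, against medians of 6 and 52.4% over all windows. Counts per gene do not say which of the Alpl starts was used. The matches describe these letters and show no binding. Whether they bear on the direction of change against V6.5 was not tested.

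Genes that work with the markers were read from lists by role. Among 19 partners and ligands, 1 was higher in M colonies, 0 were lower and 18 did not pass, with a median log2 change of 0.08 against 0.0027 over all genes. The riser was Has2, a synthase of hyaluronan, the ligand of CD44, at 4.19 CPM in V6.5, 10.5, 9.94 and 10.6 CPM among GC and 18.03, 14.4 and 17.5 CPM among M colonies (log2 change 0.68 ± 0.12, SE, edgeR adjusted p = 0.00747). All 3 M values exceeded all GC values, and the call was lost by a small margin without GC colony 2 (edgeR adjusted p = 0.0556) or M colony 3 (0.0503). Against V6.5, 4 of the 19 rose (Has2, Prom2, Msn and Itgav), 3 fell (Spp1, Igsf8 and Ptgfrn) and 12 did not pass, with a median of 0.090 against 0.015 over all genes. Igsf8 (70.6 CPM in V6.5, 46.8 ± 2.25 CPM among GC and 44.8 ± 2.74 CPM among M colonies) and Ptgfrn (196, 137 ± 12.1 and 149 ± 11.5 CPM) code for direct partners of CD9, which also fell. Spp1, coding for osteopontin, another CD44 ligand, fell from 387 CPM to 241 ± 1.37 CPM among GC and 224 ± 23.3 CPM among M colonies. Kitl, the ligand of Kit, was 3.42 CPM in V6.5, 4.72 ± 1.43 CPM among GC and 4.87 ± 0.599 CPM among M colonies and did not pass. Igsf8, Ptgfrn, Spp1 and Kitl were picked for their roles after their values were seen.

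Fut4 shares the building of SSEA-1 with other enzymes. Of 13 tested fucosylation genes, edgeR, DESeq2 and limma-voom called 0 between the sources, and 2 were higher in M colonies at an unadjusted p under 0.05; edgeR called 2 higher without M colony 2. Their median log2 change was 0.21 against 0.0027 over all genes. B4galt1, a galactosyltransferase, was 77.6 ± 3.93 CPM among GC and 82.97 ± 13.5 CPM among M colonies, and Tsta3, which makes GDP-fucose, 50.6 ± 5.35 and 51.9 ± 3.94 CPM. Against V6.5, 2 of 14 rose (Fut8 and B4galt1) and 3 fell (Fut9, Fut10 and Fuk), with a median of 0.049; the count of risers ran from 1 to 3 over the alternatives. Fut9, the other SSEA-1 fucosyltransferase and also picked after its value was seen, fell from 42.8 CPM to 24.4, 22.1 and 25.7 CPM in GC colonies and 23.8, 29.4 and 32.2 CPM in M colonies (log2 change -0.71 ± 0.14, SE, edgeR adjusted p = 0.00399). Every colony held less Fut9 than V6.5, the opposite side from Fut4.

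Among 24 other tetraspanins tested between sources, 1 rose (Tspan5, from 36.1 ± 2.04 to 47.3 ± 2.11 CPM), 1 fell (Cd37, a leukocyte tetraspanin, from 14.5 ± 0.643 to 7.60 ± 0.926 CPM) and 22 did not pass, with a median log2 change of 0.12. The Tspan5 call was lost without GC colony 2 (edgeR adjusted p = 0.126), M colony 3 (0.0834) or M colonies 2 and 3 (0.1). Against V6.5, 8 of 26 rose and 3 fell (Cd81, Cd37 and Tspan15), with a median of 0.49 against 0.015 over all genes, so that Cd9 was on the side of the fewer. Cd24a, Alpl and Thy1 code for GPI-anchored proteins. Of 27 genes of GPI anchor synthesis edgeR called 0 in either comparison; between sources 1 was higher and 2 lower at an unadjusted p under 0.05, and DESeq2 called 1 and limma-voom 0, while against V6.5 the unadjusted counts were 1 and 3 and both tools called 0. Their medians were -0.018 and -0.093. The most abundant of them, Pigt (112 CPM in V6.5, 95.4 ± 4.56 CPM among GC and 89.1 ± 4.83 CPM among M colonies) and Pigs (87.8, 83.5 ± 4.96 and 81.1 ± 4.79 CPM), are subunits of the transamidase that attaches the anchor. Of the other alkaline phosphatases, Alpi was at 0 counts in all 7 libraries, Akp3 was under 1 CPM in each, and Alppl2 was 1.07 CPM in V6.5, 0.295 ± 0.154 CPM among GC and 0.146 ± 0.148 CPM among M colonies. Alppl2 did not pass against V6.5 by edgeR (adjusted p = 0.0637), whereas limma-voom called it lower in colonies (adjusted p = 0.0168), as did edgeR without M colony 3 (0.0245) and with M colonies 2 and 3 out (0.0448).

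Of 15 other surface markers of naive pluripotent cells, 1 was higher in M colonies, 1 was lower and 13 did not pass, with a median log2 change of 0.039. Icam1, an adhesion molecule of the same protein family as PECAM1, was 97.9 CPM in V6.5, 84.8, 84.7 and 91.1 CPM among GC and 66.02, 65.1 and 59.8 CPM among M colonies (log2 change -0.45 ± 0.07, SE, edgeR adjusted p = 0.00294), and its call was lost without M colonies 2 and 3 (edgeR adjusted p = 0.102). It was ordered as Pecam1 was, with V6.5 highest and M lowest. Podxl, the sialomucin podocalyxin, rose from 203 ± 23.3 to 296 ± 61.5 CPM between sources and stood at 48.2 CPM in V6.5. That rise was not called by DESeq2 (adjusted p = 0.079) nor by edgeR once GC colony 1, GC colony 2, M colony 1 or M colony 3 was left out (adjusted p up to 0.185). Against V6.5, 6 of the 15 rose, 2 fell (Icam1 and Tdgf1) and 7 did not pass, with a median of 0.15. Of 5 markers of the primed state edgeR, DESeq2 and limma-voom called 0 between sources, and 0 had an unadjusted p under 0.05, with a median of 0.16. Notch3 (114 ± 11.7 and 128 ± 11.9 CPM) and Ncam1 (30.9 ± 2.93 and 26.95 ± 3.50 CPM) were the most abundant of them. Against V6.5, Cdh2 and Notch3 rose and 0 fell, with a median of 0.43, and Notch3 (89.6 CPM in V6.5) was not called without GC colony 2 (edgeR adjusted p = 0.0513) or without M colonies 2 and 3 (0.0681).

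**Figure D4:**
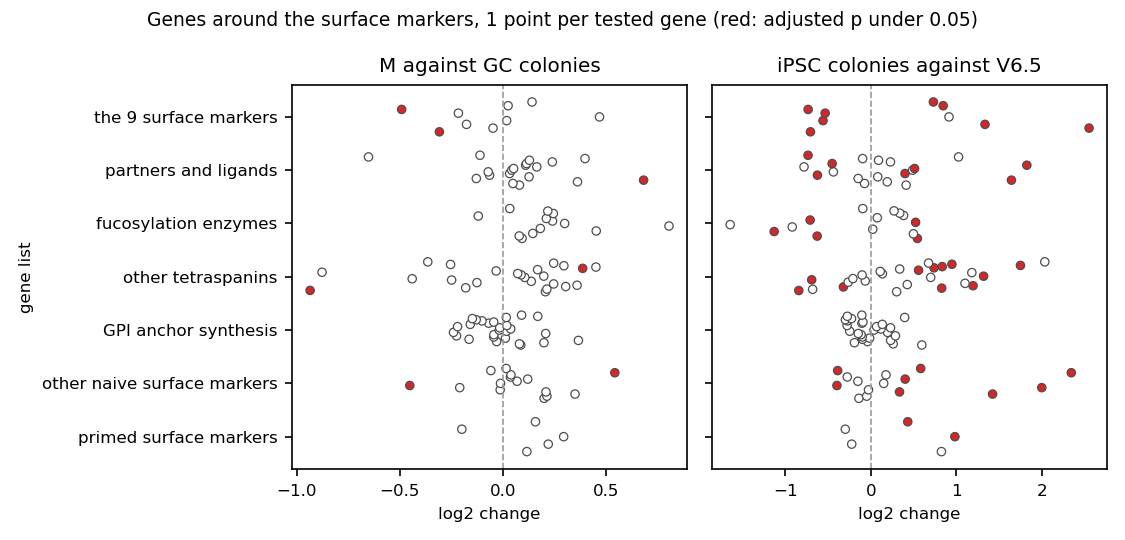
edgeR log2 change (horizontal axes) of every tested gene of the 9 surface markers and of 6 related lists, for M against GC colonies (left) and iPSC colonies against V6.5 (right); red points have an adjusted p under 0.05. Between sources few points are red in any list (2 of 9 for the surface markers), and none is red in GPI anchor synthesis on either side.

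Marker genes of further cell types, and pluripotency factors, were read in the same libraries. All 13 primitive endoderm markers, which mark an extraembryonic lineage, were higher in colonies than in V6.5, with a median log2 change of 2.39; Pdgfra is also on the fibroblast list. Their summed level was 989 CPM in V6.5, 3188 to 3741 CPM in GC colonies, and 5610.4, 3525 and 5813 CPM in M colonies. M colony 2, the lowest of the M colonies on this sum, was the highest of them for Pecam1, Alpl and Kit. Its sum lay within the range of the GC colonies, while its Pecam1 (78.6 CPM), Alpl (152 CPM) and Kit (122 CPM) lay below every GC colony. GC colony 2, the lowest of the GC colonies on this sum, was the lowest of them for Kit, in between for Pecam1 and the highest for Alpl. Between sources 12 of 13 were higher in M colonies and 0 lower at an edgeR unadjusted p under 0.05, with a median of 0.62. After adjustment 4 rose (Cubn, Amn, Dab2 and Lrp2) and 0 fell, where 1.70% of all tested genes were called higher. Dropping GC colony 2 or M colony 3 left 2 of them called, dropping M colony 2 gave 12, and dropping both M colonies 2 and 3 gave 11. Sparc (1143 ± 87.1 and 1408 ± 327 CPM) and Col4a1 (954 ± 91.05 and 1305 ± 340.2 CPM), the most abundant, did not pass. Of 12 pluripotency factors, 9 were lower in colonies than in V6.5 and 1 (Lin28a) higher, with a median of -0.62. Between sources the median was -0.0079, with 2 higher and 4 lower in M colonies at an edgeR unadjusted p under 0.05. After adjustment 0 fell and 2 rose, Pou5f1 and Klf4 (392 ± 10.02 to 517 ± 51.3 CPM), opposite to Pecam1 and Alpl. Reads of any Dox-driven copies would be counted with these genes, and Klf4 was not called without GC colony 2 (edgeR adjusted p = 0.0575) or without M colonies 2 and 3 (0.205). Germ cells carry Kit and alkaline phosphatase too. Of 7 germ cell markers 5 were lower in colonies than in V6.5 (Prdm1, Tfap2c, Ddx4, Dazl and Dnd1), with a median of -0.72. Tfap2c was 99.7 CPM in V6.5, 65.03 ± 0.868 CPM among GC and 54.1 ± 7.57 CPM among M colonies. Between sources the median was -0.24 and Ddx4 rose (34.4 ± 0.455 to 49.5 ± 7.78 CPM), which did not hold once GC colony 2, M colony 2, M colony 3 or both M colonies 2 and 3 were left out (edgeR adjusted p up to 0.466). Of the myeloid markers, 1 of 9 tested rose between sources (Lyz2, from 4.99 ± 0.992 to 8.20 ± 1.03 CPM), 0 fell and the median was 0.20; the call was lost with upper quartile scaling and in each fit that left out a colony but the one without GC colony 3 (edgeR adjusted p up to 0.226). Cd68, the most abundant of them, was 26.2 ± 1.11 CPM among GC and 24.8 ± 3.53 CPM among M colonies. Against V6.5, 2 of 10 rose (Csf1r and Lyz2), with a median of 0.32. The part of any of these cell types in the marker levels was not tested.

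By annotation, exons of 2 members overlap another gene, both on the opposite strand: Cd9 with Gm26728 (at most 7 counts in a library, against at least 5190 for Cd9) and Prom1 with Gm16401 (at most 2, against at least 173). Transcripts of other genes match a member over at least 150 bases at 95% identity or more for Cd24a (Gm6212, 218 bases, at most 4 counts), Cd9, Pecam1 and Prom1. For Pecam1 the matches, of at most 186 bases, lie in transcripts of 9 other genes, of which Slc3a2 reached 15737 counts in a library, Ilf2 8430 and Npepps 8426, against 2049 to 4179 for Pecam1. For Cd9 the matching transcripts of Topbp1 reached 8952 counts and those of Dnajc14 1319. Whether such reads were shared was not tested. The sources used here do not say how the authors' counting treated reads that fit several genes.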

How the data were processed

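The authors deposited whole-number counts per Ensembl gene, not normalized, for 7 libraries. STAR 2.7.10a, featureCounts 2.0.6 and the build mm10 (GRCm38) are named per the submitters' processing notes. The labels name both a non-stranded and a directional library, and the sources used here do not give the strand setting of the counting. Names, positions and exon lengths came from GENCODE release M21 (54809 of 54838 rows matched). Genes were filtered with filterByExpr (18166 kept for 6 libraries, 20502 for 7), scaled by TMM and compared by two-sided quasi-likelihood tests in edgeR 4.0.16, with Benjamini-Hochberg adjustment over all tested genes and a threshold of 0.05. Every edgeR adjusted p is from that test. SE is the log2 change over the square root of F. Printed CPM use the TMM factors of the 7-library fit. A count of 0 allows up to 3 counts, 0.0840 to 0.0963 CPM by library, for counting error only. The alternatives were DESeq2 1.42.0, limma-voom (limma 3.58.1), RLE and upper quartile scaling, no filter, left-out colonies, all 7 libraries and a block by colony number. The scripts were tested on simulated data. Members and lists were chosen with earlier results of these data known. The rule for other named genes took, per list, up to 4 called between sources with the largest change, or the 2 most abundant where none was called, and for cell type lists also the 2 most abundant. Other genes named as making up a count were named after their values were seen. Some listed symbols, Ankh among them, were not matched. Matched were 19 of 20 partners and ligands, 14 of 16 fucosylation enzymes, 15 of 16 other naive surface markers and 7 of 8 germ cell markers.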

Additional observations from a re-analysis of the deposited data

How the results depend on the processing

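Of all genes, 721 were called between sources. Leaving out 1 colony gave 244 to 814, leaving out M colonies 2 and 3 gave 373, and no low-count filter gave 1318. Members called lower numbered 1 to 2 over the left-out colonies and 1 with M colonies 2 and 3 out. Changes whose sign turned, none of them called on either side, ran over the left-out colonies as follows: Cd24a -0.14 to 0.025, Cd9 -0.029 to 0.058, Prom1 -0.046 to 0.087, Thy1 -0.067 to 0.25, Tsta3 -0.038 to 0.11, Pigs -0.083 to 0.0030 and Cd68 -0.20 to 0.0086 on the log2 scale. With M colonies 2 and 3 out, signs turned for Cd24a (0.12), Cd44 (0.19), Pigs (0.020) and Vim (0.025); these fits hold fewer samples. Primitive endoderm genes called higher in M numbered 4, against 6 by DESeq2, 12 with no low-count filter and 9 with the block; endothelial genes higher than in V6.5 numbered 5, against 3 by limma-voom; lists with a count of at most 2 ran from 0 to 4. Of 450 refits of single members, all 108 of M colonies and 108 of all colonies against V6.5 kept direction and side of the threshold, as did 103 of GC colonies against V6.5 and 113 between sources. Of the remaining refits of GC colonies against V6.5, 5 lost the call. Between sources 7 turned sign, 5 lost the call and 1 gained it. With the replicate block by colony number, 963 genes and 2 members (both lower) were called. Nothing in the labels pairs the numbers: deviations of same-numbered colonies correlated at 0.073, 0.075 and 0.16 across genes, though each colony correlated best with its own number. No paired analysis was possible with V6.5, because it shares at most 1 number with a colony group. The low depth of Fut4 and the single V6.5 library limit precision.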

Other observations

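Over the 7 libraries Cd24a and Cd44 had the widest ranges of the 9 surface markers, 2.701 and 1.612 on the log2 CPM scale. The genes whose profile lay nearest, by the root mean square difference of mean-centred log2 CPM over 7 libraries, were Gbp7 (0.09), Irs1 (0.14) and Gbp2 (0.14) for Cd24a. Gbp7 and Gbp2 code for guanylate-binding proteins, and Irs1 for an adaptor of the insulin receptor. Gbp2 was 4.05 CPM in V6.5 and 16.2 to 21.1 CPM in colonies. For Cd44 the nearest were Clca3b (0.08), Flrt2 (0.09) and 1810019D21Rik (0.09). Flrt2, a transmembrane protein of cell guidance, was 5.83 CPM in V6.5, 14.6, 15.2 and 16.8 CPM in GC colonies and 19.9, 14.01 and 12.4 CPM in M colonies, with M colony 1 highest as for Cd44. With 7 points and 20502 genes to choose from, close profiles are a description only.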
